A study of Mus musculus with 12 samples.

Results

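The genes described here are 9 transcripts of meningeal fibroblasts that do not encode collagens: the small leucine-rich proteoglycan genes Ogn, Lum, Dcn, Bgn and Fmod, the secreted Wnt amplifier gene Rspo1, the retinoic acid enzyme gene Aldh1a2, the transporter gene Slc6a13 and the growth factor gene Igf2. They were taken by name, as mouse symbols matched to Ensembl IDs, and all 9 were found among the 48709 gene IDs counted and among the 16829 genes with enough counts to test. Messenger RNA had been sequenced from the CA1 field of the mouse hippocampus in 12 libraries, 6 named MI and 6 named Sham. MI mice had myocardial infarction from ligation of a coronary artery, and Sham mice had a similar operation without ligation. CA1 was dissected under a microscope, frozen, and its polyadenylated RNA was read as single ends of 50 bases. Strain, age, sex and the time after surgery are not in the labels. Whether the libraries are from different animals is not stated either, so the tests measure only the spread among libraries, which may be technical.

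The meninges are the connective tissue coverings of the brain, and the leptomeninges (arachnoid and pia) follow its surface and enter the hippocampal fissure next to CA1. Their fibroblasts secrete collagen and the small leucine-rich proteoglycans, which bind collagen fibrils and influence their assembly. In the brain these cells are also known as a source of retinoic acid and of IGF2, and as a site of GABA and taurine transport. In a bulk tissue sample, fewer cells of a type and less RNA per cell cannot be told apart.

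Totals ran from 21364928 to 33614313 counts in MI and from 20764133 to 35643127 in Sham. Levels are given as CPM, the counts brought to a common library total after trimmed-mean (TMM) scaling. Sham 1 stood apart from the other libraries: it had the highest level of 8 of the 9 genes, where it was the highest library for 17.2% of all genes tested, and the lowest summed level of CA1 pyramidal neuron markers. Those markers summed to between 1573 and 2052 CPM in MI and to between 873 and 2440 CPM in Sham. Sham 6 had the highest summed level of dentate granule cell markers, 1052 CPM, against 136 to 441 CPM over the MI libraries. Counts of Y-linked genes were larger than those of Xist, the RNA that coats an inactive X, in 6 libraries (Sham 1, Sham 2 and Sham 3 with MI 1, MI 3 and MI 4), and smaller in the other 6, which makes 3 libraries of each kind per group. Results on the 9 genes are given below with and without Sham 1 and within each kind of library, and so are those lists of other genes in which most members were highest in Sham 1.

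Promoter windows were found for 7 of the 9 genes in RefSeq's table (GRCm38.p6), and 4 are printed because they belong to genes that varied most between libraries and differ plainly in base composition. Each runs from 250 bases before the RefSeq start to 25 after it, 5′ to 3′, and capitals mark every CG dinucleotide.
Ogn, chr13:49607765-49608039, + strand: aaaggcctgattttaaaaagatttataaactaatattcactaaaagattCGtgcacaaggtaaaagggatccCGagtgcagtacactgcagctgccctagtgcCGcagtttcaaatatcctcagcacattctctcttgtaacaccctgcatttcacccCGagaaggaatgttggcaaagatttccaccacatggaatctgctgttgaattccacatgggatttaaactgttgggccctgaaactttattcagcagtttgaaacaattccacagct
Fmod, chr1:134037004-134037278, + strand: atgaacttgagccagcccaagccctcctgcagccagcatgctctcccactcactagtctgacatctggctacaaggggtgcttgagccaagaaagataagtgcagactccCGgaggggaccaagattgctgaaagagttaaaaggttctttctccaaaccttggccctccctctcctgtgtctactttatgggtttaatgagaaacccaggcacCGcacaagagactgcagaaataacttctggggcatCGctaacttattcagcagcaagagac
Aldh1a2, chr9:71215539-71215813, + strand: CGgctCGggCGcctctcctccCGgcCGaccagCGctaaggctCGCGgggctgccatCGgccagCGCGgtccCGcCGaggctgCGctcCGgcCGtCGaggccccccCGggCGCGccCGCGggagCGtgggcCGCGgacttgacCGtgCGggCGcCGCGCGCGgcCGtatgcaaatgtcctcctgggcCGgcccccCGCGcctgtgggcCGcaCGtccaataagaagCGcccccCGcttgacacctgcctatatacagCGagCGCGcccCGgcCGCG
Rspo1, chr4:124986180-124986454, + strand: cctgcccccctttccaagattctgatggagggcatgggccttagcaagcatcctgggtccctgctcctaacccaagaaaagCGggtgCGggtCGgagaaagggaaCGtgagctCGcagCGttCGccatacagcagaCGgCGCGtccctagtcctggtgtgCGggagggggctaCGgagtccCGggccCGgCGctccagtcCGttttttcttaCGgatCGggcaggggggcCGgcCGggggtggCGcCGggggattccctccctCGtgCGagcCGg
The windows of Ogn and Fmod held few CG dinucleotides and those of Aldh1a2 and Rspo1 many. Counted over the whole 300 bases, Ogn had 4, Fmod 3, Aldh1a2 50 and Rspo1 29, where the median of 32851 promoter windows was 7. As many CG dinucleotides as in Aldh1a2 stood in 0.855% of windows, and as many as in Rspo1 in 12.9%. The letters TATAAA, searched on both strands, matched in Ogn alone among the 7 genes, at 2 overlapping places, and in 13.6% of all windows. Among the other genes, Bgn had 9 CG dinucleotides, the 3 windows of Slc6a13 had between 2 and 11, and the 4 windows of Igf2 between 2 and 24. The genes with few and with many CG dinucleotides both include genes whose levels varied together, as described further on.

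**Figure D1:**
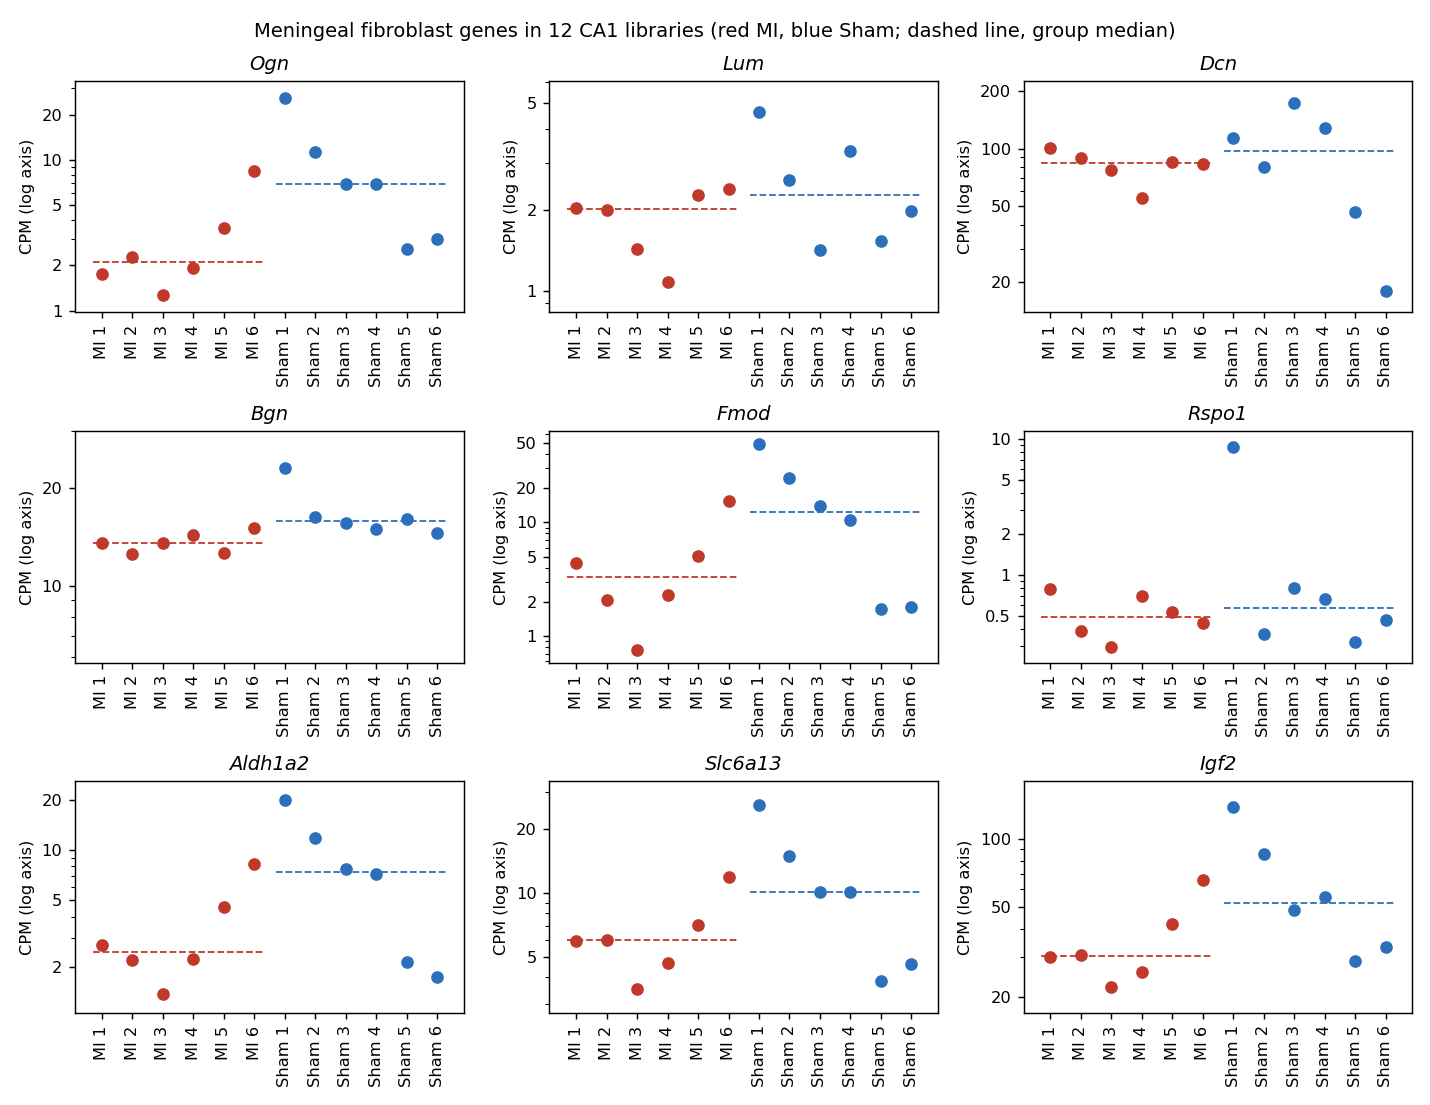
CPM of the 9 genes in each library on log axes, MI in red and Sham in blue, with the group median as a dashed line. Sham 1 is the highest point in every panel but that of Dcn, where Sham 3 is highest at 173.9 CPM, and Sham 5 and Sham 6 lie among the MI libraries or below them for Ogn, Fmod, Aldh1a2, Slc6a13 and Igf2.

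None of the 9 genes differed between MI and Sham at an adjusted p under 0.05, and neither did any other gene (0.0% of 16829, quasi-likelihood F test of edgeR, p-values adjusted over all of them by Benjamini-Hochberg). All 9 log2 fold changes, MI minus Sham, were below 0, where 52.4% of all genes were, and their median was -0.85 against -0.01 over all genes. Without Sham 1, 8 were below 0 and the median was -0.41. Without Sham 6 instead, all 9 were below 0 and the median was -0.98, with 0 of the 9 past the threshold. Fold changes below -0.5 were found for 6 of the 9, Ogn, Fmod, Rspo1, Aldh1a2, Slc6a13 and Igf2, against 2.5% of all genes. The 9 genes were chosen with earlier results of these data known, so these shares are a description and no test. Rspo1 was at 0.00 without Sham 1, and the levels of the others of the 6 varied together, so they are not independent. At an unadjusted p under 0.05 there were 3, Ogn, Bgn and Igf2, where 3.59% of all genes were lower in MI at that level and 7.55% differed in either direction. DESeq2 gave no p for Rspo1 and called 0 of the other 8, and 0.0243% of genes lower and 0.0364% higher in MI. The CPM values of the groups overlapped for all 9 genes, as they did for all but 0.41% of genes.

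Among the proteoglycans, Ogn encodes osteoglycin (ENSMUSG00000021390, chr13:49608046-49624501, mm10). It had 1.75, 2.27, 1.26, 1.90, 3.53 and 8.47 CPM in MI 1 to MI 6, and 25.8, 11.2, 6.89, 6.92, 2.56 and 3.01 CPM in Sham 1 to Sham 6. All 6 Sham libraries exceeded the MI median of 2.09 CPM, and MI 6 lay among the higher Sham libraries, so the groups overlapped. The means were 3.20 ± 2.69 CPM in MI and 9.40 ± 8.63 CPM in Sham (SD, n = 6 each). The log2 fold change was -1.51 (SE 0.60), with an edgeR adjusted p of 0.616 and an unadjusted exact two-sided permutation p of 0.0519. Without Sham 1 the log2 fold change was -0.90.

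Fmod encodes fibromodulin (ENSMUSG00000041559, chr1:134037254-134048277), which binds fibrillar collagen. It had 4.38, 2.08, 0.757, 2.28, 5.05 and 15.3 CPM in MI 1 to MI 6, and 49.1, 24.5, 14.1, 10.5, 1.74 and 1.78 CPM in Sham 1 to Sham 6. Sham 1 to Sham 4 each exceeded at least 5 of the 6 MI libraries, whereas Sham 5 and Sham 6 were each below 5 of them. It had the widest span of the 9 genes, 64.8-fold between MI 3 and Sham 1, where the median gene spanned 1.49-fold. In MI 3 it had only 18 counts, so that span is imprecise. The means were 4.97 ± 5.305 CPM in MI and 16.9 ± 17.9 CPM in Sham (SD, n = 6 each). The log2 fold change was -1.73 (SE 0.84, edgeR adjusted p = 0.690, exact permutation p = 0.173), and -1.05 without Sham 1.

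Lum and Dcn, which encode lumican and decorin, are neighbours on chromosome 10 (Dcn at chr10:97479609-97518143 and Lum at chr10:97565128-97572703), 46985 bases apart and on the same strand. Lum (ENSMUSG00000036446) ranged from 1.08 to 2.39 CPM in MI with a median of 2.01, and from 1.42 to 4.65 CPM in Sham with a median of 2.28. Only Sham 1, Sham 2 and Sham 4 exceeded every MI library, and the log2 fold change was -0.45 (SE 0.29, edgeR adjusted p = 0.752, exact permutation p = 0.266). Without Sham 1 it was -0.21. Dcn (ENSMUSG00000019929) had 100.6, 89.2, 77.5, 55.2, 85.3 and 82.7 CPM in MI 1 to MI 6, and 113.9, 80.3, 173.9, 128.0, 46.8 and 18.0 CPM in Sham 1 to Sham 6. The MI libraries kept close together while Sham libraries lay both above and below all of them. The SD of log2 CPM was 0.29 in MI and 1.19 in Sham. Its fitted log2 fold change was -0.19 (SE 0.40, edgeR adjusted p = 0.941), but the mean of log2 CPM was higher in MI, 6.33 against 6.22 in Sham (exact permutation p = 0.859). Without Sham 3 the fitted value was 0.08, so the data gave Dcn no direction. The levels of Lum and Dcn were weakly related despite their position, with a Spearman rho of 0.40 over 12 libraries.

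Bgn encodes biglycan (ENSMUSG00000031375, chrX:73483602-73495933), a close relative of decorin. It had 13.6, 12.5, 13.5, 14.3, 12.6 and 15.1 CPM in MI 1 to MI 6, and 23.1, 16.3, 15.7, 15.0, 16.1 and 14.6 CPM in Sham 1 to Sham 6. Only MI 6 exceeded any Sham library. The means were 13.6 ± 0.995 CPM in MI and 16.8 ± 3.17 CPM in Sham (SD, n = 6 each). Its span over all libraries, 1.84-fold, was the smallest of the 9 genes. The log2 fold change was -0.30 (SE 0.10) with an edgeR adjusted p of 0.597. The exact permutation p was 0.00649 before any adjustment, and 7.47% of all genes were under 0.05 in that test. Without Sham 1 the log2 fold change was -0.19.

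Rspo1 encodes R-spondin 1 (ENSMUSG00000028871, chr4:124986430-125009099), a secreted protein that amplifies Wnt signals through LGR receptors. Sham 1 had 191 counts of it, or 8.80 CPM, and the other 11 libraries had 7 to 19 counts. In CPM it ranged from 0.294 to 0.783 in MI with a median of 0.487, and from 0.324 to 8.80 in Sham with a median of 0.570. The difference therefore rested on a single library: the log2 fold change was -1.82 (SE 0.86, edgeR adjusted p = 0.670, exact permutation p = 0.496) with Sham 1 and 0.00 without it.

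Aldh1a2 encodes retinaldehyde dehydrogenase (ENSMUSG00000013584, chr9:71215789-71296243), which makes retinoic acid from retinaldehyde. It had 2.72, 2.19, 1.39, 2.24, 4.59 and 8.29 CPM in MI 1 to MI 6, and 19.8, 11.7, 7.69, 7.20, 2.15 and 1.74 CPM in Sham 1 to Sham 6. As for Fmod, Sham 1 to Sham 4 were each above at least 5 of the 6 MI libraries, and Sham 5 and Sham 6 were each below 5 of them. The means were 3.57 ± 2.55 CPM in MI and 8.39 ± 6.74 CPM in Sham (SD, n = 6 each). The log2 fold change was -1.20 (SE 0.58, edgeR adjusted p = 0.686, exact permutation p = 0.165), and -0.75 without Sham 1.

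Slc6a13 encodes a membrane transporter of GABA and taurine (ENSMUSG00000030108, chr6:121300227-121337733). It had 5.94, 6.0, 3.53, 4.68, 7.06 and 11.9 CPM in MI 1 to MI 6, and 25.9, 14.9, 10.1, 10.1, 3.83 and 4.60 CPM in Sham 1 to Sham 6. MI 6 was above 4 of the 6 Sham libraries, and Sham 5 and Sham 6 were each below 5 of the MI libraries. The means were 6.51 ± 2.89 CPM in MI and 11.6 ± 8.11 CPM in Sham (SD, n = 6 each). The log2 fold change was -0.81 (SE 0.44, edgeR adjusted p = 0.705, exact permutation p = 0.221), and -0.41 without Sham 1.

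Igf2 encodes insulin-like growth factor 2 (ENSMUSG00000048583, chr7:142650766-142666816), an imprinted growth factor that binds the IGF1 receptor and is cleared by the IGF2 receptor. It had 30.05, 30.4, 22.0, 25.6, 41.9 and 65.3 CPM in MI 1 to MI 6, and 138.2, 85.8, 48.6, 55.2, 28.6 and 33.2 CPM in Sham 1 to Sham 6. Of the Sham libraries, 5 exceeded the MI median of 30.2 CPM and 2 exceeded every MI library. The means were 35.9 ± 15.9 CPM in MI and 64.9 ± 41.2 CPM in Sham (SD, n = 6 each). The log2 fold change was -0.85 (SE 0.39, edgeR adjusted p = 0.655, exact permutation p = 0.1104), and -0.48 without Sham 1. The antisense gene Igf2os overlaps 98 of the 5723 exon bases of Igf2, and the labels do not state whether the authors counted by strand. In the annotation the protein-coding gene Gm49394 overlaps 3596 of these bases on the same strand; it was not analysed here, and how reads there were assigned was not tested, so the level of Igf2 is uncertain to that extent.

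**Figure D2:**
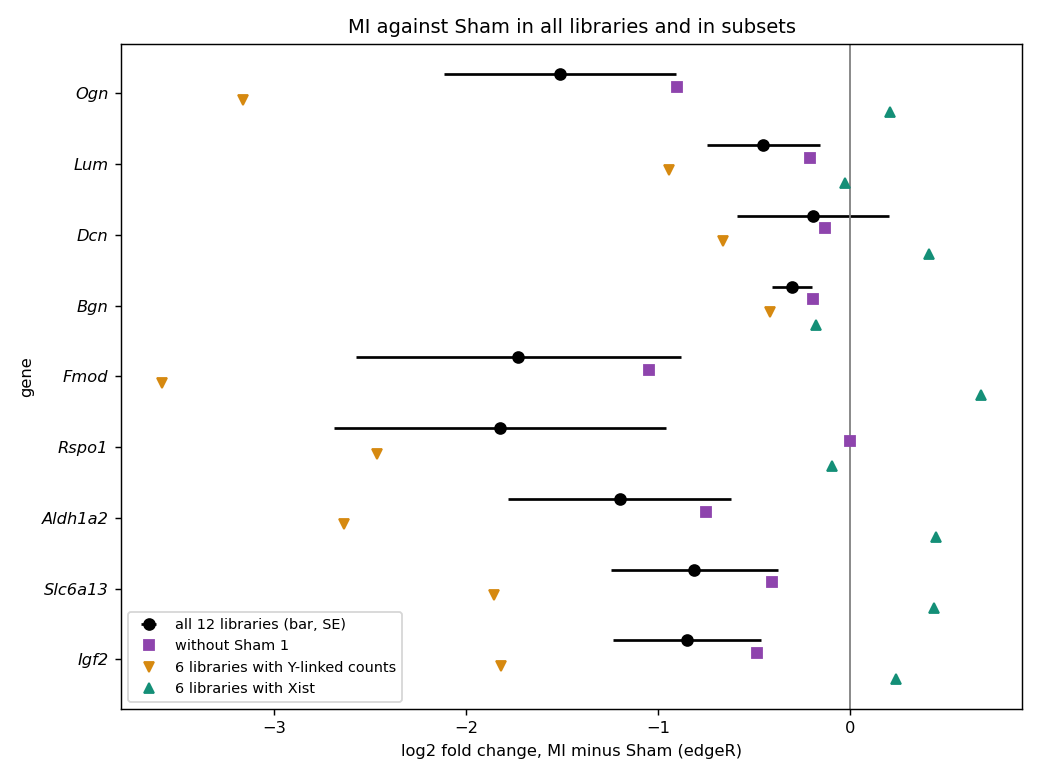
Log2 fold changes, MI minus Sham, of the 9 genes in edgeR with all 12 libraries (black, bar 1 SE), without Sham 1 (squares), in the 6 libraries with Y-linked counts (triangles down) and in the 6 with Xist (triangles up). Fmod runs from -3.58 in the libraries with Y-linked counts to 0.68 in those with Xist, and Rspo1 stands at 0.00 without Sham 1.

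Within the libraries with Y-linked counts, most of the 9 genes had lower levels in MI than in Sham without overlap. There, Fmod had 0.757 to 4.38 CPM in MI and 14.1 to 49.1 CPM in Sham, and Aldh1a2 had 1.39 to 2.72 CPM in MI and 7.69 to 19.8 CPM in Sham. Ogn had 1.26 to 1.90 CPM in MI and 6.89 to 25.8 CPM in Sham. Of the 9 genes, 6 (Ogn, Bgn, Fmod, Aldh1a2, Slc6a13 and Igf2) had every MI library of this kind below every Sham library, where 10.7% of all genes did and 10.9% had the reverse. Lum, Dcn and Rspo1 overlapped. Fitted in these 6 libraries alone, Aldh1a2 passed the threshold (log2 fold change -2.64, edgeR adjusted p = 0.0469), and 0.428% of all genes were called lower and 0.499% higher in MI there. Ogn came next with an edgeR adjusted p of 0.0548 and a log2 fold change of -3.16.

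In the libraries with Xist, 0 of the 9 genes had all MI libraries below all Sham libraries, where 2.73% of genes did, and 0 of the 9 had them all above, where 2.88% did. Fmod had 2.08 to 15.3 CPM in MI and 1.74 to 10.5 CPM in Sham, and Aldh1a2 had 2.19 to 8.29 CPM in MI and 1.74 to 7.20 CPM in Sham. Igf2 had 30.4 to 65.3 CPM in MI and 28.6 to 55.2 CPM in Sham. The log2 fold changes there ran from -0.18 for Bgn to 0.68 for Fmod, and Lum, Bgn and Rspo1 were below 0. The test of the difference between the kinds of library, an interaction term in edgeR, gave log2 differences of -4.27 for Fmod (SE 1.31), -3.37 for Ogn (SE 0.90), -3.08 for Aldh1a2 (SE 0.89), -2.29 for Slc6a13 (SE 0.64) and -2.05 for Igf2 (SE 0.57). None of the 9 passed it, with a smallest edgeR adjusted p of 0.398 for Ogn, and 0.0119% of all genes did. With 3 libraries per group in each kind, the difference between the kinds was not shown. Sham 1, Sham 2 and Sham 3 are all of the Sham libraries with Y-linked counts, so what sets those libraries high and the kind of library cannot be told apart. High levels were not confined to them. For Ogn, Fmod, Aldh1a2, Slc6a13 and Igf2, MI 6, with Xist, lay above Sham 3 and below Sham 1 and Sham 2. For Fmod it had 15.3 CPM, against 14.1 CPM in Sham 3.

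Levels can be set beside each other only per transcript length, here as CPM per kilobase of annotated exon averaged over the 12 libraries. Dcn was highest at 15.0 and Igf2 followed at 8.81. Fmod at 3.32, Slc6a13 at 3.11, Aldh1a2 at 2.64, Bgn at 2.49 and Ogn at 2.45 were close to each other, and Lum at 0.908 and Rspo1 at 0.627 were lowest. Among neighbours in that order, the mean difference exceeded the SD of the difference over libraries for a pair of steps, Igf2 above Fmod in 12 of 12 libraries and Slc6a13 above Aldh1a2 in 11 of 12. In MI alone, Dcn averaged 14.0 ± 2.60 CPM per kilobase, against 16.0 ± 9.73 in Sham (SD, n = 6 each), and Fmod averaged 1.505 ± 1.60 in MI and 5.13 ± 5.41 in Sham.

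**Figure D3:**
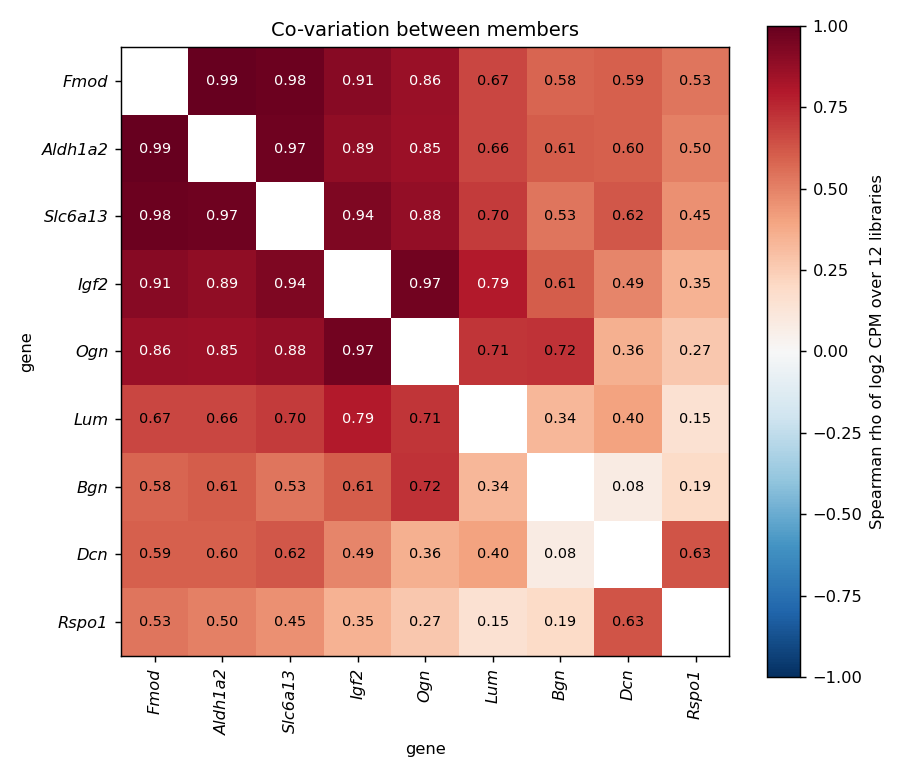
Spearman rho of log2 CPM over 12 libraries for each pair of the 9 genes, on a colour scale from -1 to 1. Fmod, Aldh1a2, Slc6a13, Igf2 and Ogn form a block with rho from 0.85 to 0.99, and the row of Dcn runs from 0.08 to 0.63.

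The levels of 5 of the genes followed each other closely across libraries, and those of the other 4 less so. All 36 pairs of the 9 genes had a positive Pearson r of log2 CPM. After adjustment over the 36 pairs, 25 passed at 0.05 by Pearson r and 16 by Spearman rho (permutation tests, 100000 resamples). All 10 pairs among Ogn, Fmod, Aldh1a2, Slc6a13 and Igf2, which were grouped after their values were seen, passed both tests. In those pairs r ranged from 0.944 to 0.988 and rho from 0.853 to 0.993, with a largest adjusted permutation p of 0.00299 for rho. Without the 2 libraries farthest from the median, r was 0.894 to 0.985. Within groups it was 0.900 to 0.984 in MI and 0.946 to 0.996 in Sham, and on deviations from the group means it was 0.944 to 0.986. Fmod and Aldh1a2 were the closest pair, with an r of 0.988 and a rho of 0.993.

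**Figure D4:**
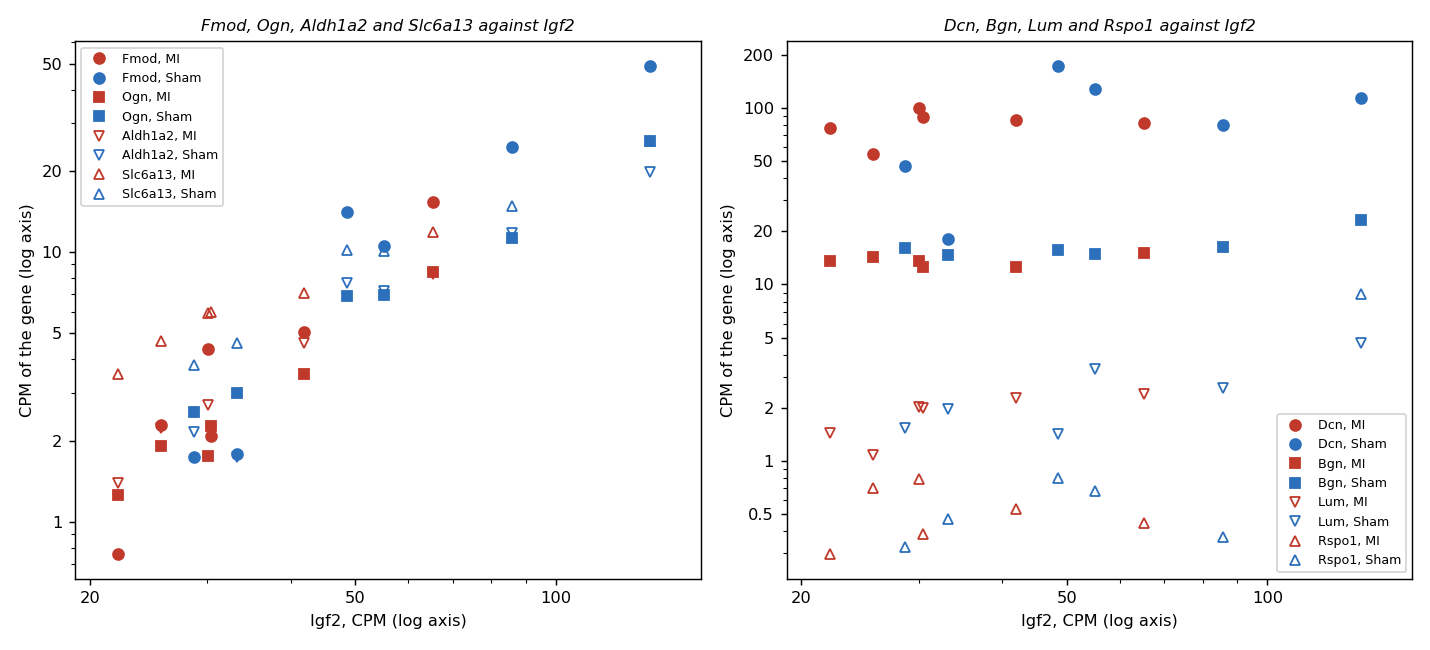
CPM of each of the other 8 genes against CPM of Igf2 by library, all on log axes, MI in red and Sham in blue. On the left, Fmod, Ogn, Aldh1a2 and Slc6a13 increase along with Igf2, with Sham 1 at the upper right and MI 6 between Sham 2 and Sham 4; on the right, Dcn, Bgn, Lum and Rspo1 follow Igf2 less closely, and Rspo1 reaches 8.80 CPM in Sham 1 alone.

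The ratio of Slc6a13 counts to Igf2 counts stayed between 0.134 and 0.209 in all 12 libraries, a 1.56-fold span, although Igf2 itself spanned 6.27-fold and Slc6a13 spanned 7.33-fold. The ratio of Fmod to Dcn spanned 44.1-fold and that of Fmod to Bgn 38.0-fold, so the proteoglycan genes did not keep a fixed ratio to each other. Dcn passed with no other gene in either test, and its rho ranged from 0.084 to 0.629. Rspo1 passed with 5 genes by Pearson r and with 0 by Spearman rho, and its r ran from 0.327 to 0.785 over 12 libraries and from -0.03 to 0.38 without Sham 1. Bgn passed with 5 genes by r and with 1, Ogn, by rho (0.72). Lum passed with 5 by r and with 5 by rho. Without Sham 1, 11 of the 36 pairs passed by rho, and r among the 5 genes that moved together was 0.922 to 0.984.

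By library, Sham 1 was among the 4 highest for all 9 genes, Sham 2 for 7, MI 6 and Sham 3 for 6 each, and Sham 4 for 4. MI 3 was among the 4 lowest for all 9 genes and Sham 5 for 7. High and low libraries were thus found in both groups. The summed level of the 9 genes ran from 108 CPM in MI 4 to 210.0 CPM in MI 6, and from 79.4 CPM in Sham 6 to 409 CPM in Sham 1.

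Genes of the pathways in which the members act were then read from lists of named genes. None of them passed the threshold in edgeR over all 12 libraries. Of 12 other small leucine-rich proteoglycan genes, 9 had enough counts to test, with 2 log2 fold changes above 0, 7 below and a median of -0.15. The most abundant, Prelp, which lies 115840 bases from Fmod, had 26.9 ± 4.50 CPM in MI and 28.8 ± 4.41 CPM in Sham (SD, n = 6 each). Its log2 fold change was -0.10, with Podn at 0.04 and Ecm2 at -0.24. Omd, osteomodulin, the gene next to Ogn, ranged from 0.041 to 1.53 CPM in MI and from 0 to 3.82 CPM in Sham, highest in Sham 1 like Ogn. Epyc, the nearest tested gene to the right of Lum at 71365 bases, did not follow it. Its highest level was in Sham 5, and its rho with Lum was -0.72 over 12 libraries. Apart from these and Slc6a12, described below, the nearest tested genes on either side of the 9 had log2 fold changes from -0.18 to 0.70. These were Haus7, 24558 bases from Bgn, and Th, 225936 bases from Igf2, with edgeR adjusted p of 0.811 and 0.614.

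Of the R-spondin and Wnt regulator genes, 10 of 11 were tested, 4 above and 6 below 0, with a median of -0.10. Lrp6 and Lgr4, coreceptor and R-spondin receptor, had log2 fold changes of -0.10 and -0.11, and Rspo2, which was 38.3 ± 5.73 CPM in MI and 35.99 ± 13.1 CPM in Sham (SD, n = 6 each), had 0.09. Of the retinoic acid genes, 13 of 14 were tested, 6 above and 7 below 0, with a median of -0.15. Aldh1a1, which makes retinoic acid as Aldh1a2 does, had 40.4 ± 7.57 CPM in MI and 37.4 ± 15.5 CPM in Sham, and the receptor genes Rxra and Rara had log2 fold changes of 0.01 and 0.35. In the IGF list, 12 of 14 were tested, 4 above and 8 below 0, with a median of -0.06 that was 0.01 without Sham 1 (7 above, 5 below), and Igfbp5, Insr and Igfbp4 had -0.33, 0.01 and 0.26. Of the genes of GABA and taurine transport, Slc6a6 and Slc6a11 had log2 fold changes of -0.06 and -0.03. Slc6a12, 5343 bases from Slc6a13, ranged from 0.308 to 1.74 CPM in MI and from 0.677 to 4.56 CPM in Sham, was highest in Sham 1 and had a log2 fold change of -1.31 (SE 0.49, edgeR adjusted p = 0.606).

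Other genes known from meningeal fibroblasts were also mostly highest in Sham 1. Of 36 tested from a list of 38, 3 log2 fold changes were above and 33 below 0, the median was -0.54, and 26 were highest in Sham 1. The median was -0.33 without Sham 1 (3 above and 33 below 0), -1.17 among libraries with Y-linked counts (3 above, 33 below) and 0.08 among those with Xist (24 above, 12 below). Fitted among libraries with Y-linked counts alone, 4 of the 36 passed the threshold. There 0.428% of all genes were called lower and 0.499% higher in MI. The most abundant of the 36 did not follow, and which cells their counts came from was not tested. Ccn3 had 309 ± 48.9 CPM in MI and 277 ± 78.9 CPM in Sham. Apod had 105 ± 14.3 CPM in MI and 92.4 ± 18.9 CPM in Sham (SD, n = 6 each). Vtn, also a pericyte gene, had 59.2 ± 2.25 CPM in MI and 63.8 ± 11.02 CPM in Sham. The 10 collagen genes were 2 above and 8 below 0, with a median of -0.37, and 8 of them were highest in Sham 1. Their median was -0.22 without Sham 1, -0.71 among libraries with Y-linked counts and 0.08 among those with Xist. They summed to between 133 and 209 CPM in MI and between 96.7 and 385 CPM in Sham. Col6a1, Col5a1 and Col6a2 were the most abundant of them, with log2 fold changes of -0.79, -0.21 and -0.38.

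The 10 genes most like the 9, by Spearman rho with the mean of their standardised log2 CPM over 12 libraries and among 13582 candidates, included the scavenger receptor gene Colec12 (rho 0.972), the transporter gene Slc6a20a, the collagen gene Col3a1 and the Wnt receptor gene Fzd7 (0.965 for each), and Pcolce (0.958), an enhancer of procollagen processing. Next came Dab2, Anpep, Mgp and Myoc (0.951 for each) and the sulfate transporter gene Slc13a4 (0.944). Without Sham 1, 8 of these 10 were again among the 10 most like, and by Pearson r 6 were. Slc13a4 spanned the most, 23.4-fold, with 4.21 CPM in MI and 13.01 CPM in Sham on average and a log2 fold change of -1.59 (edgeR adjusted p = 0.655).

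**Figure D5:**
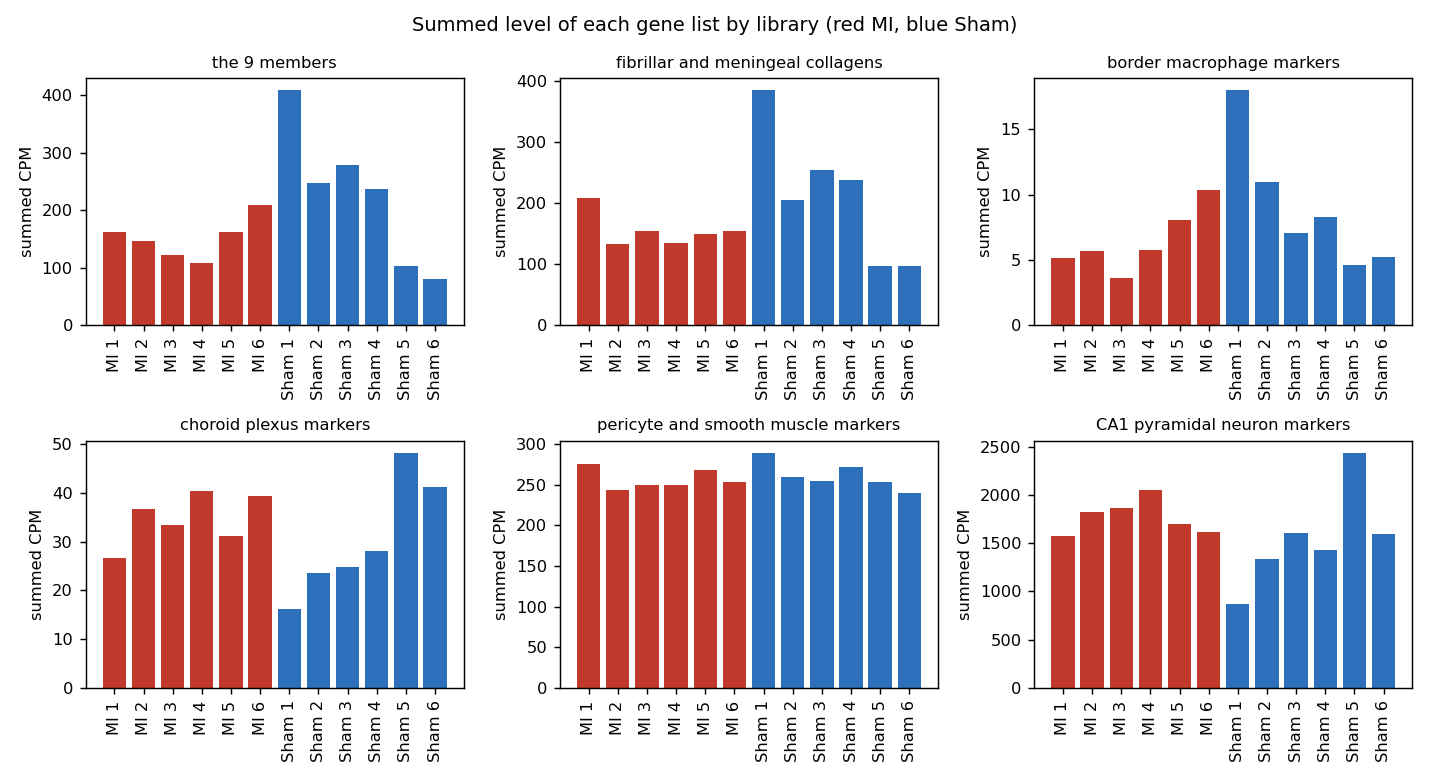
Summed CPM of the 9 genes and of 5 marker lists in each library, MI in red and Sham in blue, with bars from 0. Sham 1 is the highest bar for the 9 genes, the collagens, the border macrophage markers and the pericyte markers and the lowest for the choroid plexus and CA1 markers.

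Markers of other cells at the brain's borders were set beside these values, and their part in the results was not tested. The 6 border macrophage markers tested, of 7, were 0 above and 6 below 0 and their median log2 fold change was -0.45, and all 6 were highest in Sham 1. The median was -0.15 without Sham 1 (1 above and 5 below 0), -1.20 among libraries with Y-linked counts (0 above, 6 below) and 0.43 among those with Xist (6 above, 0 below). They summed to between 3.58 and 10.3 CPM in MI and between 4.59 and 18.0 CPM in Sham, and the most abundant were Mrc1 (log2 fold change -0.48), F13a1 (-0.42) and Cd163 (-0.31). The choroid plexus also expresses Igf2, and its part in the level of Igf2 was not tested. The sum of choroid plexus markers was lowest in Sham 1, at 16.2 CPM, and highest in Sham 5. It ran from 26.7 to 40.5 CPM in MI and from 16.2 to 48.3 CPM in Sham. That sum was mostly Kl, at 20.6 CPM on average, where the next marker, Prlr, had 3.91 CPM. Taken singly, 3 of the 6 markers tested were lowest in Sham 1. Its defining marker Ttr had 2.62 to 6.59 CPM in MI and 0.829 to 4.06 CPM in Sham, with 0.829 CPM in Sham 1. Of 15 choroid plexus markers, 6 had enough counts to test, 5 above and 1 below 0, with Kl at 0.14 and Prlr at -0.10, and none was at 0 in every library.

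Markers of vessels had medians near 0. The pericyte and smooth muscle markers were 6 above and 4 below 0 (median log2 fold change 0.01), and summed to between 244 and 275.5 CPM in MI and between 239 and 289 CPM in Sham. The endothelial markers were 8 above and 4 below 0 with a median of 0.06. The CA1 pyramidal markers were 9 above and 1 below 0 with a median of 0.16, and 8 of 10 were lowest in Sham 1; without it the median was 0.04 (7 above, 3 below), and it was 0.72 among libraries with Y-linked counts and -0.08 among those with Xist. The dentate granule markers were 0 above and 10 below 0 with a median of -0.50, but 9 of 10 were highest in Sham 6, and without it 6 were above and 4 below 0 with a median of 0.25. Their median library sum was 285 CPM in MI and 245 CPM in Sham. The myelin markers were 12 above and 0 below 0 with a median of 0.50. Ependymal markers had a median of 0.04, blood markers 0.04 and astrocyte markers -0.01. None of these genes passed the threshold in edgeR over all 12 libraries. Fitted among libraries with Y-linked counts alone, all 12 myelin markers were called higher in MI, with a median of 0.89. There 0.499% of all genes were called higher. Among those with Xist the myelin median was 0.14, with 0 called.

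The authors' deposited tables of differing genes list 542 genes higher and 517 lower in MI, where 16829 genes were tested here. Of the 9 genes, 0 are in either. Of the other meningeal genes, Tbx18 and Twist1 are among the lower genes in the authors' deposited table and Apod among the higher ones. Optc, another small leucine-rich proteoglycan gene, is among the lower ones, and 0 of the 10 collagen genes are in either. From the other pathway lists, Cyp26b1 (retinoic acid) and Lgr6 (R-spondin receptors) are among the higher ones. Their log2 fold changes in edgeR here were 0.83 and -0.14. With so small a share of all genes listed, 0 of 9 or 0 of 10 says little about these genes.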

How the data were processed

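For each library the authors deposited raw read counts by Ensembl gene ID. The submitters' processing notes name FastQC 0.11.5, STAR 2.5.2b, featureCounts, Subread 1.5.1 and mm10, but no order or settings. The authors' 2 deposited gene tables give log2 values and p-values, with no account of how these were made, and only their gene names were used. Symbols and positions came from GENCODE on the same build for 48349 of 48709 IDs.

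The 9 genes and all 18 lists were chosen with earlier results of these data known. All 12 libraries were fitted in edgeR 4.0.16 (R 4.3.3) with filterByExpr, TMM scaling and the robust quasi-likelihood F test, two-sided, without covariates, with Benjamini-Hochberg adjustment over 16829 genes and a threshold of 0.05. Log2 CPM used a prior count of 2. Single genes were also tested by exact permutation of the group labels, with a smallest possible p of 0.00216. Genes named were the 9 and, where a result needed them, the 3 most abundant tested genes of each other list, the nearest tested genes on either side of each of the 9, and the 10 most alike with a mean of at least 50 counts. Counts over the list of GABA and taurine transporters, and 1 of its genes, are not reported here. Those named from the authors' tables were chosen after their values were seen. Alternatives were DESeq2 1.42.0, limma-voom (limma 3.58.1), other scalings and filters, a replicate block, sva 3.50.0, subsets of libraries and leaving out each library. The interaction test and the fit without Sham 1 and Sham 2 were added after seeing the data. The sets by Y-linked and Xist counts are not groups of the study. Sequences are RefSeq's, and Lum and Dcn promoters were not analysed here.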

Additional observations from a re-analysis of the deposited data

Results flagged for a closer look

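In 5 cases a library stood far from the other 5 of its group. Its gap to the next library, taken in CPM, was above Dixon's critical value for 6 values. Chance marks about 1 in 20 groups in this way only where values are normally distributed, which was not tested for CPM. In all, 18 groups of values were looked at, which share their libraries. MI 6 had 8.47 CPM of Ogn, where the next MI library had 3.53, and 15.3 CPM of Fmod, where the next had 5.05. Sham 1 had 25.8 CPM of Ogn, where the next Sham library had 11.2, and 23.1 CPM of Bgn, where the next had 16.3. Sham 1 had 8.80 CPM of Rspo1, where the next had 0.802. On log2 CPM the gaps for Ogn and Fmod were a smaller part of the group's range. There MI 6 had 3.10 for Ogn (next 1.85, lowest 0.42) and 3.94 for Fmod (next 2.36, lowest -0.26). For Ogn, Sham 1 had 4.69 (next 3.50, lowest 1.40). MI 6 also had the highest border macrophage sum of the MI libraries, 10.3 CPM, and Sham 1 the highest of all, 18.0 CPM; the part of those cells in these values was not tested.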

How the results depend on the processing

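Of 233 recomputed log2 fold changes of the 9 genes over 26 alternatives, 221 kept their direction and their side of the threshold, 1 (Rspo1 in DESeq2) kept its direction but had no p, 10 reversed and 1 newly passed (Aldh1a2 in the libraries with Y-linked counts, -2.64). In the libraries with Xist alone Ogn (0.21), Dcn (0.41), Fmod (0.68), Aldh1a2 (0.45), Slc6a13 (0.44) and Igf2 (0.24) reversed, and 3 of the 9 were below 0. Dcn also reversed with the replicate block (0.064), with 1 surrogate variable (0.19) and without Sham 3 (0.078), and Rspo1 without Sham 1 (0.0021). With that surrogate variable Ogn was at -0.80, Lum at -0.30, Fmod at -0.38, Rspo1 at -0.58, Aldh1a2 at -0.44, Slc6a13 at -0.29 and Igf2 at -0.46, each over 1.5 times nearer to 0 than without it, and Bgn at -0.26. The cause was not tested. With at least 50 counts required in 6 libraries, Rspo1 was not tested. Leaving out each library in turn gave -2.11 to -0.90 for Ogn, -0.57 to -0.21 for Lum, -0.41 to 0.08 for Dcn, -0.34 to -0.19 for Bgn, -2.53 to -1.05 for Fmod, -2.06 to 0.00 for Rspo1, -1.66 to -0.75 for Aldh1a2, -1.08 to -0.41 for Slc6a13 and -1.11 to -0.48 for Igf2. Without Sham 1 and Sham 6 together, Ogn was at -1.06, Fmod at -1.31, Aldh1a2 at -0.97, Slc6a13 at -0.56 and Igf2 at -0.60. Without Sham 1 and Sham 2 together, Ogn was at -0.56, Fmod at -0.46, Aldh1a2 at -0.36, Slc6a13 at -0.12 and Igf2 at -0.20. All 9 genes were below 0 in each of these fits.

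Over all genes, edgeR called 0 and had 1270 at an unadjusted p under 0.05, limma-voom called 0, and DESeq2 called 6 higher and 4 lower in MI. The libraries with Y-linked counts alone gave 84 higher and 72 lower. Deviations from the group means had correlations of -0.35 to 0.40 between same-numbered MI and Sham libraries. For MI 1, MI 3 and MI 6 the same-numbered Sham library was the most correlated of the Sham libraries. Whether the numbers mark a pairing or a shared batch was not tested. With the replicate block edgeR called 0 genes higher and 0 lower, and 8 of the 9 genes were below 0. The smallest counts in a library were 7 for Rspo1, 18 for Fmod and 26 for Lum.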
